A study of Mus musculus with 4 samples.

Results

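The contacts between topologically associating domain (TAD) 2 and TAD5 of the mouse epidermal differentiation complex were resolved to single restriction fragments in 2 libraries of epidermal keratinocytes and 2 libraries of thymocytes. A contact was a member when the midpoint of its first fragment lay at 90.635 to 91.895 Mb (TAD2) and that of the other at 93.53 to 94.0025 Mb (TAD5) of chromosome 3 in build mm9. This rule uses positions only, and it found 350 contacts of the 111588 that at least 1 library listed. Keratinocyte library 1 listed 324 of them, keratinocyte library 2 listed 262, thymocyte library 1 listed 165 and thymocyte library 2 listed 171. Both keratinocyte libraries listed 240, both thymocyte libraries 120, and all 4 libraries 102. The fragments lay 1682 to 3323 kb apart.

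The contacts were measured by chromosome conformation capture carbon copy (5C), in which pairs of DNA probes are joined when the HindIII fragments they match were ligated to each other in fixed nuclei. The keratinocytes came from the skin of new-born C57Bl/6 mice and were fixed 15 hours after plating at 32 °C, whereas the thymocytes were the total cell population released from C57Bl/6 thymi, of an age that the labels do not give. All 4 libraries were made from cells fixed in 1% formaldehyde for 10 minutes, and no group carried a genetic change or was given a drug as an experimental treatment. The study plated the keratinocytes in a low-calcium medium with additions that included hydrocortisone, insulin, EGF and cholera toxin. Its methods list no such additions for the thymocyte medium. The study calls the 2 libraries of a cell type biological replicates, without saying in the labels which animals each came from, and contact tables hold no marker by which the cell type could be checked.

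A TAD is a stretch of chromatin whose parts meet each other more often than they meet the neighbouring stretches. The epidermal differentiation complex holds gene families that build the cornified layer of the skin, and most of these genes lie in TAD3 and TAD4, between the 2 domains studied here. Distant domains that are both poor in active genes often meet in the nucleus, and such meetings appear in 5C data as contacts above the frequency expected for their distance.

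TAD2 held 3 protein-coding genes of the GENCODE vM1 annotation over its 1260 kb, namely 9130204L05Rik, Pglyrp3, which encodes a peptidoglycan recognition protein, and Lor, which encodes loricrin, a major protein of the cornified envelope. Its density was 2.38 protein-coding genes per Mb, against 30.9 in TAD4 and 43.6 in TAD3. TAD5, described as gene-poor, held 10 protein-coding genes over 472.5 kb in this annotation, or 21.2 per Mb, among them Tdpoz3, Tdpoz4, Tdpoz5 and several predicted genes. The label gene-poor therefore held for TAD2 and not for TAD5 with these gene models, and the members are called TAD2-TAD5 contacts here.

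TAD2 was read at 86 fragments, 41 with forward and 45 with reverse probes, and TAD5 at 10 fragments, 4 forward and 6 reverse. A contact joins a forward to a reverse fragment, so members fall into 2 sets without a shared fragment. The 10 TAD5 fragments covered 19.621 kb in all, with a gap of up to 145.025 kb between neighbours, and 13 other designed TAD5 probes had no fragment listed in the tables used here. All TAD5 values rest on these few fragments.

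The probes of the TAD5 fragments with at least 5 TAD2 contacts in both keratinocyte libraries are shown because every TAD2-TAD5 value is read through them. Each line gives the 30 bases that match the end of the fragment, from 5′ to 3′, with the bases of the cut HindIII site in capitals. Reverse probes are written on the minus strand.
F1223: gctttggaagtctctatctgacctaatAAG
R1225: CTTtgtgtatattggtatttctctccttgg
F1228: ttgtctgctatgtgtccttcttggaccAAG
R1247: CTTattcctcacattctctgctatgaggtt
R1249: CTTactagaatagagaccccccaaagcaaa
F1275: gttacataaaattgccacatacatcacAAG
R1311: CTTttgcagcaccctggggagagaacctat
F1351: actgtcttccaggagtttactagttcgAAG

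The fragments of these probes are F1223 (chr3:93574073-93574787), R1225 (chr3:93574851-93577264), F1228 (chr3:93581371-93584233), R1247 (chr3:93620377-93620864), R1249 (chr3:93621427-93627532), F1275 (chr3:93694506-93697585), R1311 (chr3:93823869-93824247) and F1351 (chr3:93969272-93970198). R1225 overlapped an exon of the predicted gene Gm5773, and the other 7 were intergenic in the annotation. The first 5 lie within the first of 3 equal stretches of TAD5, next to Gm5773 and Tdpoz3.

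The probes of 4 TAD5 fragments matched a second place. F1223, R1247, F1275 and R1281 each had 1 further exact match of all 30 bases at another HindIII site, on the opposite strand, as did 1 of the 86 TAD2 probes and 17 of the 710 probes of all fragments listed. The second match of F1223 lay in TAD4 at chr3:93458662-93458691, 116.1 kb from its own position, and that of R1281 also lay in TAD4, at chr3:93524582-93524611. The second match of R1247 lay in TAD6 at chr3:94050678-94050707, and that of F1275 within TAD5 itself at chr3:93543111-93543140. The probe of R1266, which had a single listed contact with TAD2, was not found at its listed position in the genome. Values are therefore also given for the other TAD5 fragments alone.

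The TAD2 probes shown next belong to the 6 fragments with the highest mean Z score in keratinocytes among those with at least 4 contacts listed in both keratinocyte libraries, in the same notation. R469, F470 and F476 together span 17.4 kb.
R469: CTTtctaagtatgcctctggcttggggatc
F313: actgtgaccccagtctgttcttagagaAAG
F470: ttggtaaattaccttatcctcaccagtAAG
R285: CTTcgtgcaaggtgagaaatgtggatttat
F395: tgttggagcattgatcttatagactcaAAG
F476: gatagttaagtagtcataaagtccccaAAG

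In keratinocytes the TAD2-TAD5 contacts lay above the frequency expected for their distance, by about as much as the expected frequency itself in library 1. The median corrected frequency of the contacts each library listed was 110 against a median expected frequency of 54.6 in keratinocyte library 1, and 50.7 against 33.6 in keratinocyte library 2. It was 50.6 against 44.8 in thymocyte library 1 and 25.0 against 21.2 in thymocyte library 2. These frequencies are corrected for probe coverage and are not scaled to a common total, so they are compared within a library only. The median ratio of observed to expected frequency was 1.98 and 1.47 in keratinocytes, against 1.15 and 1.01 in thymocytes. The share of contacts above their expected frequency was 85.8% and 80.9% in keratinocytes and 63.6% and 50.3% in thymocytes.

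Z scores express how many standard deviations a contact lies above or below its expected frequency, and they gave the same order of cell types. The mean Z score of the listed TAD2-TAD5 contacts was 2.62 in keratinocyte library 1, 2.37 in keratinocyte library 2, 1.03 in thymocyte library 1 and 1.31 in thymocyte library 2. The medians were 1.65, 0.97, 0.35 and 0.03 in the same order. The highest 10% of the contacts held 58.4% and 58.3% of the positive excess in frequency in thymocytes, against 32.4% and 43.1% in keratinocytes. Among other contacts between TADs at these distances the shares were 65.0% and 63.7% in thymocytes and 56.7% and 65.3% in keratinocytes. The excess of the thymocyte members was thus no more concentrated than that of other contacts. The other contacts between TADs at the same distances had mean Z scores of 0.182 and 0.726 in keratinocytes and 0.769 and 1.20 in thymocytes, so the members stood above them by 2.43, 1.65, 0.26 and 0.11.

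The libraries also differed in how many of the possible TAD2-TAD5 pairs they listed. Keratinocyte libraries listed 85.9% and 81.9% of the pairs of their fragments, and thymocyte libraries 44.8% and 48.2%. For the other pairs between TADs at the same distances the shares were 76.7% and 55.0% in keratinocytes and 31.7% and 42.3% in thymocytes. In all, 134 members were listed in a keratinocyte library only and 4 in a thymocyte library only. A pair that is not listed has no value here and was not read as a frequency of 0.

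**Figure D1:**
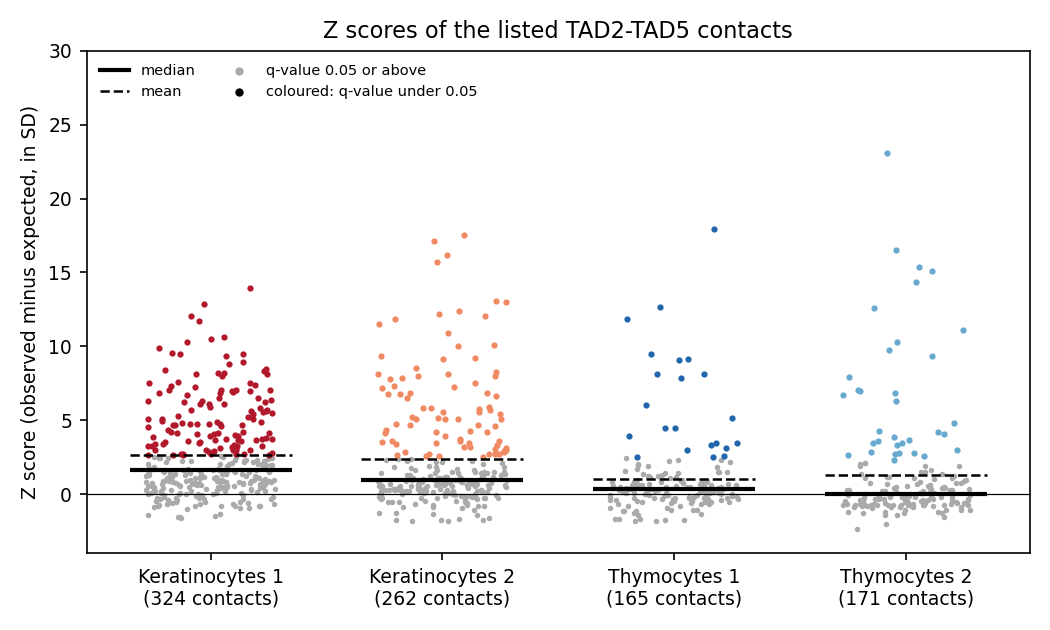
Z score of every TAD2-TAD5 contact that a library listed (vertical axis, in standard deviations above or below the expected frequency), with each point a contact, solid bars the medians, dashed bars the means, and coloured points the contacts with a q-value under 0.05. The keratinocyte medians of 1.65 and 0.97 sit above the thymocyte medians of 0.35 and 0.03, and each thymocyte library has a few contacts far above the rest.

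Contacts were called at a deposited q-value under 0.05. Of the members it listed, keratinocyte library 1 called 126 (38.9%), keratinocyte library 2 called 84 (32.1%), thymocyte library 1 called 22 (13.3%) and thymocyte library 2 called 34 (19.9%). Over all contacts, the libraries called 5.99%, 11.4%, 11.7% and 14.5% in that order. The share of members called was therefore above that of all contacts by 32.9 and 20.7 percentage points in keratinocytes and by 1.6 and 5.4 points in thymocytes.

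In keratinocytes 48 of the 240 TAD2-TAD5 contacts listed by both libraries were called in both, which is 20%, against 1.99% of all contacts and 1.87% of the other contacts between TADs at the same distances. In thymocytes 4 of 120 were called in both, or 3.33%, against 4.03% of all contacts and 4.33% of the others. At least 2 times the expected frequency in both libraries was reached by 56 members in keratinocytes (23.3%, against 3.44% of all contacts and 3.81% of the others) and by 4 in thymocytes (3.33%, against 3.73% and 4.42%). A frequency above the expected in both libraries was found for 176 members in keratinocytes (73.3%, against 34.1% and 32.5%) and for 44 in thymocytes (36.7%, against 35.6% and 27.3%). By each of these 3 rules the keratinocyte share exceeded that of all contacts by more than 2 times, and the thymocyte share differed little from it. Without the 4 TAD5 fragments whose probes match a second place, 26 of 147 contacts were called in both keratinocyte libraries.

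Of the 48 contacts called in both keratinocyte libraries, 24 were listed in both thymocyte libraries, and 4 of these were called in both of them. At least 1 thymocyte library listed 32 of the 48, and at least 1 called 14 of these 32. All 4 contacts called in both thymocyte libraries were among the 48. The same overlap between cell types was not counted over all contacts, so it is not read as particular to the members.

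The 2 keratinocyte libraries ranked the members in a partly similar order, with a Pearson's r of 0.277 and a Spearman's rho of 0.397 over 240 contacts. In thymocytes r was -0.050 and rho was -0.119 over 120 contacts, so a contact that was high in the first thymocyte library was in general not high in the second. These coefficients describe contacts that share fragments and are not independent. The highest contact of each library shows the same, since R236-F1228 had a Z score of 17.9 in thymocyte library 1 and -0.90 in thymocyte library 2, while F433-R1225 had 13.9 in keratinocyte library 1 and 3.59 in library 2. In keratinocyte library 2 the highest was R655-F1223, with 17.5 against 2.74 in library 1.

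**Figure D2:**
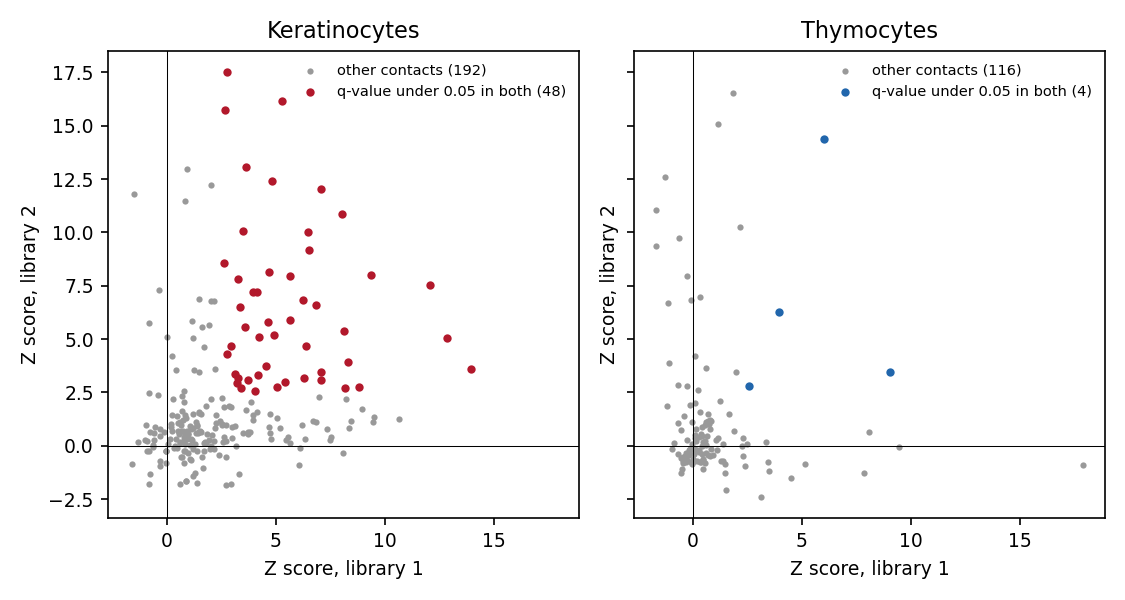
Z scores of the TAD2-TAD5 contacts listed by both libraries of a cell type, library 1 on the horizontal and library 2 on the vertical axis, with coloured points for contacts with a q-value under 0.05 in both. Keratinocytes have 48 such contacts of 240, thymocytes 4 of 120, and most high thymocyte contacts lie along a single axis.

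The cell types were compared over the 102 members that all 4 libraries listed. Their mean Z score was 3.54 in keratinocyte library 1 and 2.01 in library 2, and it was 0.97 in thymocyte library 1 and 1.43 in library 2, so the groups did not overlap. Keratinocytes averaged 2.78 ± 1.08 (SD, n = 2), and thymocytes averaged 1.20 ± 0.33 (SD, n = 2). Their difference of 1.58 had a two-sided exact permutation p of 0.333, the smallest that 2 libraries against 2 allow. It was 0.82 without keratinocyte library 1, so its size depended on that library. On the log2 scale of observed over expected frequency the means were 1.31, 0.69, 0.29 and 0.25, a difference of 0.73.

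Contact by contact, both keratinocyte Z scores lay above both thymocyte Z scores for 51 of the 102 members, or 50%, against 21.1% of all contacts. The reverse order was found for 4 members, or 3.92%, against 19.1% of all contacts. The limma fit over 23395 contacts called 0 members and 0 contacts in all at an adjusted p under 0.05. At an unadjusted p under 0.05, 3 members were higher in keratinocytes and 0 lower, against 2.97% and 2.14% of all contacts tested. The fitted difference was above 0 for 78 of the 102 members, against 49.3% of all contacts, and its median was 1.61 over the members and -0.02 over all contacts.

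The members were then set against the pairs of TADs that share TAD2 or TAD5 with them, over the same range of distances and the contacts listed in all 4 libraries. The mean Z score of the 102 members exceeded that of 517 TAD2-TAD4 contacts by 2.45 and 1.18 in keratinocytes and by 0.24 and 0.09 in thymocytes. It exceeded that of 330 TAD2-TAD6 contacts by 2.89 and 1.47 in keratinocytes and by 0.39 and 0.56 in thymocytes. Against 40 TAD1-TAD5 contacts the members were higher by 3.15 and 0.59 in keratinocytes and by 0.18 and 0.61 in thymocytes.

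All 3 differences were positive in 4 of 4 libraries, with means of 0.99, 1.32 and 1.13, but that from TAD2-TAD4 contacts was below 0 in thymocyte library 2 under 5 of 8 other settings, at -0.17 when each library kept its own contacts. The two-sided exact sign-flip permutation p was 0.125 for each, which is the smallest that 4 libraries allow, and 0.125 after Benjamini-Hochberg adjustment over the 3 comparisons. Without keratinocyte library 1 the means were 0.50, 0.80 and 0.46. The keratinocyte minus thymocyte difference of these 3 values was 1.65, 1.70 and 1.47, with exact permutation p of 0.333, 0.333 and 0.667 (0.5, 0.5 and 0.667 adjusted). The order of cell types was not complete for the last of them, since keratinocyte library 2, at 0.59, lay below thymocyte library 2, at 0.61.

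Each TAD5 fragment was next examined on its own. In keratinocytes TAD2 was the partner TAD with the highest mean Z score, among the TADs other than TAD5 itself, for all 9 TAD5 fragments of library 1 and all 8 of library 2 that had at least 5 TAD2 contacts. In thymocytes this held for 3 of 7 and 4 of 8. Seen from TAD2, TAD5 was the highest partner for 69 of 79 and 42 of 64 fragments with at least 3 TAD5 contacts in keratinocytes, and for 7 of 32 and 13 of 40 in thymocytes. TAD2 fragments had far fewer contacts with TAD5 than with TAD4, so their TAD5 means vary more and can be the highest more readily. The share to be expected without an excess was not worked out. By the counts seen from TAD5, nearly every TAD5 fragment carried part of the keratinocyte excess, and the values below show how unevenly.

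F1275, which lies 16.2 kb from Gm9116, had the highest mean Z score with TAD2 in both keratinocyte libraries. Its means were 4.43 and 3.59 in keratinocytes and 1.84 and 2.01 in thymocytes, over 26 to 35 contacts. It held 16.4% and 20.9% of the summed excess in frequency in keratinocytes, and 7 of the 48 contacts called in both libraries. F1275 is also a fragment whose probe matches a second place, within TAD5. The keratinocyte minus thymocyte difference over the remaining members was 1.53 without it.

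F1223 and R1225 are separated by 63 bases and differ in probe orientation, so their TAD2 partners are different fragments. F1223 had means of 3.23 and 2.81 in keratinocytes and 0.45 and 0.57 in thymocytes, and R1225 had 3.38 and 2.52 against 1.13 and 1.10. In both fragments both keratinocyte values lay above both thymocyte values, an order that was not counted for fragments of other TADs. R1225, whose probe has a single match, took part in 13 of the 48 called contacts, the most of any TAD5 fragment, and F1223 in 7. R1225 had 39 and 36 listed TAD2 contacts in keratinocyte libraries 1 and 2, and F1223 had 41 and 37. Numbers listed differ between TAD5 fragments, down to 20 for R1311 in library 2. Counts called are therefore not read as a ranking of the fragments by level.

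The fragments next to Tdpoz3, a gene whose protein carries TRAF and BTB/POZ domains, were R1247 and R1249. R1247 had means of 2.68 and 2.26 in keratinocytes and 0.17 and 1.54 in thymocytes, with 8 called contacts. Its mean with TAD1 was 0.30 in keratinocyte library 1 and 1.83 in keratinocyte library 2. R1249 had 2.89 and 1.56 in keratinocytes and 1.52 and 0.96 in thymocytes, with 4 called contacts. For R1249 the second keratinocyte value was close to the first thymocyte value. No fragment lay within 10 kb of Tdpoz4 or Tdpoz5.

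F1228 was the exception in this stretch. It begins 4106 bases past R1225, and its mean Z score with TAD2 was 0.83 and 1.23 in keratinocytes and 1.49 and 0.63 in thymocytes, so the cell types overlapped. None of its 29 contacts listed in both keratinocyte libraries was called in both.

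Towards the end of TAD5 the values were F1351 at 1.56 and 1.86 in keratinocytes and 0.15 and 0.56 in thymocytes, with 2 called contacts. R1311 had 1.73 over 40 contacts and 3.42 over 20 contacts in keratinocytes, with 7 called contacts. In keratinocyte library 2 R1311 was also high with TAD1, at 3.15, and with TAD3, at 2.80. In keratinocyte library 1 these means were 0.50 and 0.24. In thymocytes R1311 was listed in 1 contact of the first library, at -1.69, and in 9 of the second, at a mean of 5.55, so its thymocyte level is hardly known. R1281 was listed in keratinocyte library 1 only, with a mean of 3.37 over 20 contacts.

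**Figure D3:**
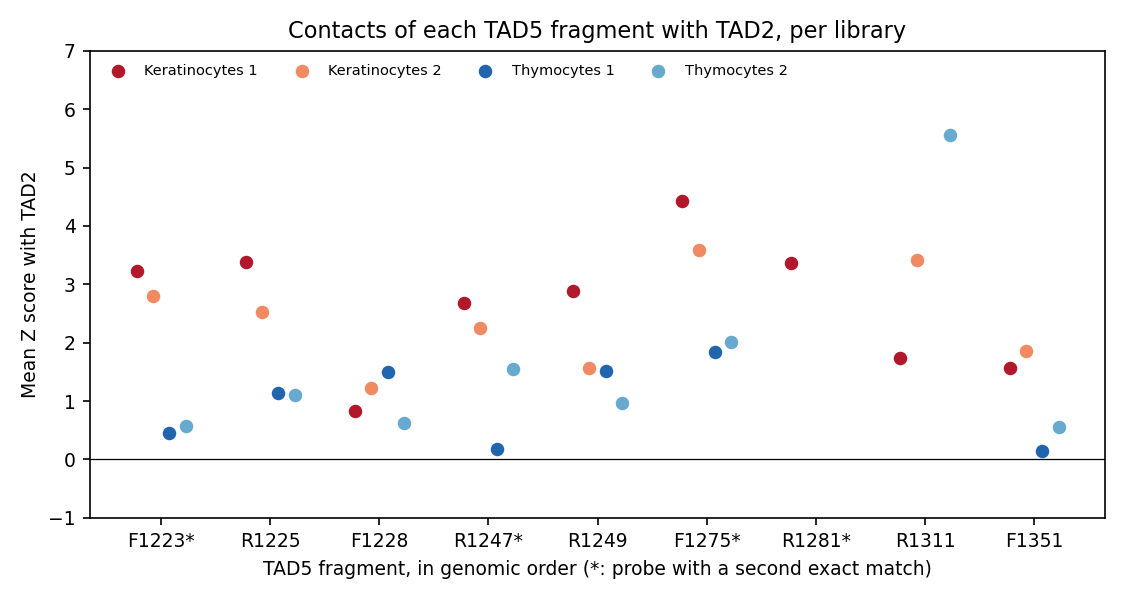
Mean Z score of each TAD5 fragment with TAD2 in each library (vertical axis) for fragments with at least 5 contacts in that library, in genomic order along the horizontal axis, with an asterisk where the probe matches a second place. Both keratinocyte points lie above both thymocyte points for F1223, R1225, R1247, R1249, F1275 and F1351, and not for F1228 or R1311. For R1249 the separation is slight, at 1.56 against 1.52. How often fragments of other TADs show this order was not counted, so it is not read as particular to TAD5.

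The fragments with a second match were higher than the other TAD5 fragments in keratinocytes, with mean Z scores of 3.37 against 2.10 in library 1 and 2.88 against 2.02 in library 2. In thymocytes they were 0.97 against 1.08 and 1.35 against 1.29. The contacts in which neither fragment had another exact match, or a match with up to 3 differing bases, had means of 2.16 and 2.20 in keratinocytes, over 160 and 129 contacts, and 1.34 and 1.42 in thymocytes, over 73 and 89 contacts. Without these probes the keratinocyte means were thus lower than over all members in both libraries and the thymocyte means higher. The gap between the means of the cell types was 0.81, against 1.33 over all members that each library listed.

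By position, TAD5 was cut into 3 equal stretches and TAD2 into 4. Over the contacts listed by both keratinocyte libraries, the stretches of TAD5 from left to right had mean Z scores of 2.74, 3.22 and 1.82 in library 1 and 1.98, 3.38 and 1.87 in library 2. They held 32, 14 and 2 of the 48 called contacts, out of 163, 43 and 34 contacts. The first stretch minus the other two, over the members listed in all 4 libraries, was -0.38 and -1.05 in keratinocytes and 0.21 and -0.59 in thymocytes. The mean of -0.45 had an exact sign-flip permutation p of 0.25, where 4 libraries cannot give less than 0.125. The middle stretch, the highest in both keratinocyte libraries, was not tested against the others. Its contacts listed by both keratinocyte libraries came from F1275 and R1311 only. The second match of the F1275 probe lies in the first stretch, so the contacts of F1275 cannot be placed in a stretch with certainty. This also limits the contrast of the first stretch with the others.

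Along TAD2 the stretches from left to right had mean Z scores of 2.88, 2.93, 4.27 and 1.91 in keratinocyte library 1 and 3.27, 2.06, 2.97 and 1.57 in library 2. The last stretch was the lowest in both libraries, and the stretches held 10 of 44, 14 of 63, 13 of 35 and 11 of 98 contacts called in both libraries, or 22.7%, 22.2%, 37.1% and 11.2%. In thymocytes the corresponding means were 2.02, 0.53, 0.71 and 1.20 in library 1 and 0.83, 0.79, 1.65 and 1.57 in library 2. The left minus the right part of TAD2 about its midpoint was 0.48 and 0.25 in keratinocytes and 0.43 and -0.92 in thymocytes, a mean of 0.06 with an exact sign-flip permutation p of 1. The 56 contacts with the forward probe in TAD2 had mean Z scores above those of the 46 with the reverse probe there by 0.15, 0.34, -0.02 and 0.29, a mean of 0.19 with p of 0.25 in the same exact test. The 2 sets share no fragment, and each had a mean Z score of at least 1.83 in either keratinocyte library.

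**Figure D4:**
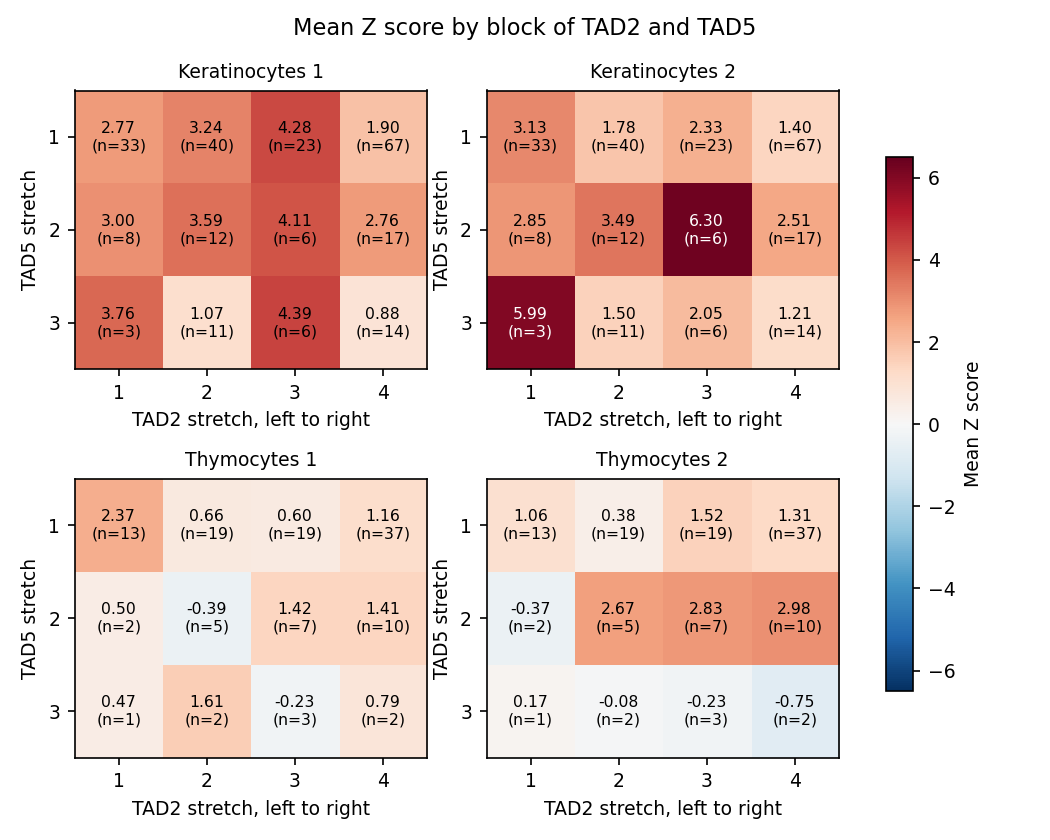
Mean Z score of the TAD2-TAD5 contacts listed by both libraries of the cell type for each combination of the 4 equal stretches of TAD2 (horizontal axis) and the 3 equal stretches of TAD5 (vertical axis), with the value and the number of contacts in each cell. All 12 cells are above 0 in both keratinocyte libraries, and the cells of the last stretch of TAD2 with the last of TAD5 are at 0.88 and 1.21.

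Among the 31 TAD2 fragments with at least 4 contacts listed in both keratinocyte libraries, 30 had a mean Z score above 0 in both. The mean over the 2 libraries ran from -0.12 to 6.60 with a median of 1.72, and the libraries ranked the fragments with a Spearman's rho of 0.63. The other TAD2 fragments had too few contacts for this ranking. Only 3 TAD2 fragments had as many contacts in both thymocyte libraries, so no such ranking was made there.

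R469 and F470, which are adjacent fragments (chr3:91271949-91274126 and chr3:91274127-91275028), were among the 3 highest of these 31. R469 had means of 4.40 and 8.79 in keratinocytes over 4 contacts, 3 of them called in both libraries. In thymocytes it was listed in 1 contact per library, at 3.49 and -1.18. F470, read by a forward probe and thus through other TAD5 fragments, had 5.10 and 5.38 in keratinocytes, and -0.21 and 5.80 in thymocytes over 3 contacts each.

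F476 (chr3:91287430-91289317) completed this cluster, with 4.74 and 3.27 in keratinocytes and 1.92 and 10.2 in thymocytes. In thymocyte library 2 both F470 and F476 were thus as high as in keratinocytes, and in thymocyte library 1 both were lower. All 3 fragments are intergenic, 377.2 to 392.7 kb from the nearest protein-coding gene, 9130204L05Rik.

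The other 3 of these 6 fragments lay to the left. F313 (chr3:90886774-90888313), 3.7 kb from 9130204L05Rik, had 4.47 and 6.81 in keratinocytes, with all 4 of its contacts called in both libraries, and 2.96 and 0.88 in thymocytes. R285 (chr3:90786099-90789616) had 4.34 and 4.82 in keratinocytes and -0.10 in thymocyte library 1, with no contact listed in library 2. F395 (chr3:91066578-91073286) had 3.71 and 5.38 over the contacts both keratinocyte libraries listed. Over the contacts that each library listed, it had 2.99 and 5.38 in keratinocytes and 0.71 and -0.35 in thymocytes.

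The 3 lowest of the 31 fragments all lay at the right end of TAD2. F675 had keratinocyte means of 0.69 and 0.06, R679 had 0.71 and 0.01, and F683, which contains Lor, had 0.71 and -0.96. None of their contacts was called in both keratinocyte libraries. F683 was at 0.04 in thymocyte library 1 and at 5.14 in thymocyte library 2, over 3 contacts each. Over all 5 contacts that keratinocyte library 1 listed, F683 was at 0.51.

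Over the last 50 kb of TAD2 the mean Z score with TAD5 was 0.85 and 0.95 in keratinocytes, over 37 and 32 contacts. Between 50 and 200 kb before that end it was 2.56 and 1.92, and over the rest of TAD2 it was 2.96 and 2.85. In thymocytes the corresponding means were 0.76 and 0.81, 1.47 and 1.62, and 0.89 and 1.28, so they too were lowest at the end. The low end was not uniform, since R674 (chr3:91862381-91862861), which adjoins F675, formed a called contact with F1275 at Z scores of 6.84 and 6.62. The 50 kb limit was chosen after the values were seen.

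Fragments within 10 kb of a gene were read for the genes of both domains. Near 9130204L05Rik the mean Z score with TAD5 was 3.92 and 4.74 in keratinocytes and 1.72 and 0.66 in thymocytes, from 2 fragments. Near Pglyrp3 it was 1.83 and 0.78 in keratinocytes and 1.09 and 0.24 in thymocytes, from 6 fragments. Near Tdpoz3 in TAD5 it was 2.78 and 1.94 in keratinocytes and 0.86 and 1.22 in thymocytes.

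The borders of the excess were read by setting the fragments on either side of a TAD border against each other, without a test. From TAD5, the first 200 kb inside TAD2 had mean Z scores of 2.75 and 2.29 in keratinocytes, against 0.22 and 0.68 over the 200 kb of TAD1 before it. The last 200 kb inside TAD2 had 2.05 and 1.61, against 0.60 and 0.54 over the first 200 kb of TAD3. The fall at the right border was smaller over 100 kb to either side, where the means were 1.22 inside against 0.73 outside in library 1 and 1.38 against 0.66 in library 2. In thymocytes the inside and outside values were 1.17 against 0.42 and 1.21 against 0.96 at the left border, and 1.26 against 1.41 and 1.36 against 1.03 at the right border.

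**Figure D5:**
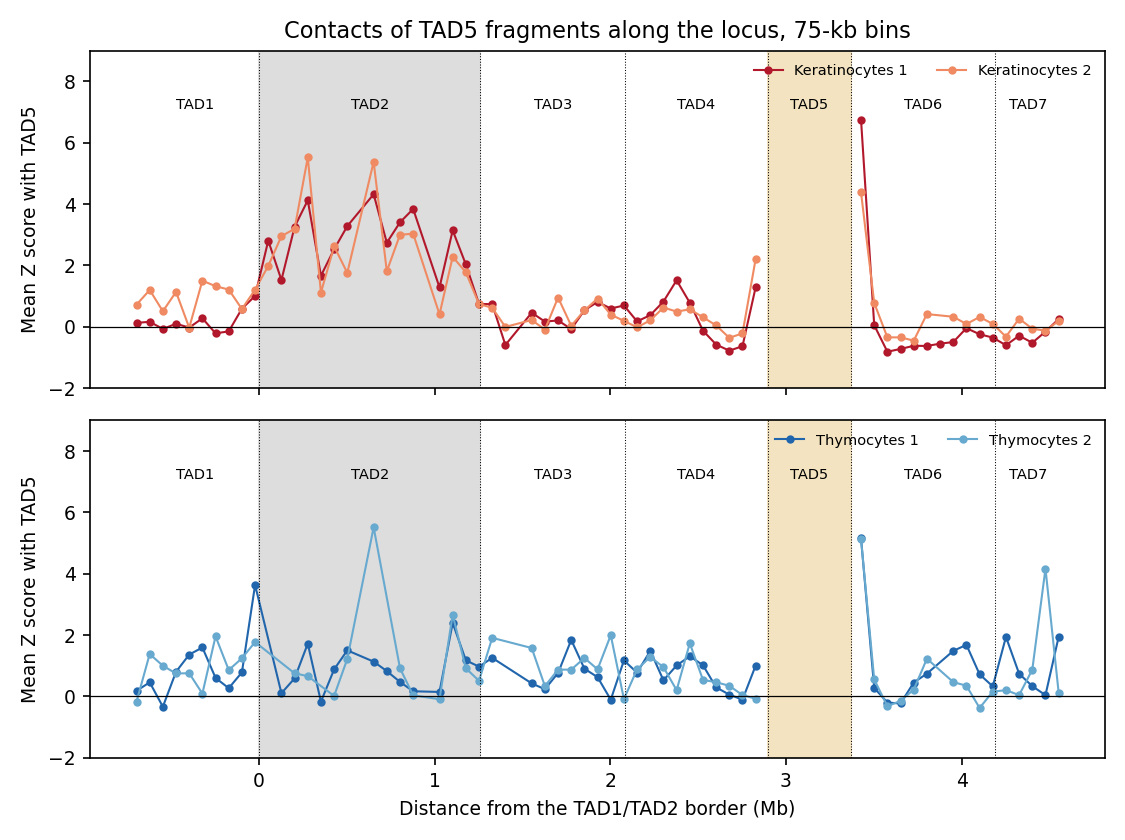
Mean Z score of TAD5 fragments with fragments along the locus, averaged over 75 kb bins that hold 5 or more contacts (vertical axis), by distance from the TAD1/TAD2 border in Mb (horizontal axis), with TAD2 in grey, TAD5 in tan and dotted lines at the borders. In keratinocytes, the bins are high across most of TAD2 and have fallen to 0.74 in both libraries in the bin at its right border, whereas the thymocyte lines show no block over TAD2.

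Seen from TAD2, the edges of TAD5 were less sharp in keratinocytes. The 5 fragments in the first 100 kb of TAD5 had mean Z scores with TAD2 of 2.65 and 2.11, and the 3 fragments in the last 100 kb of TAD4 had 2.68 and 2.23. A further 100 kb into TAD4 the means were 0.44 and 1.09. On the other side, the last 100 kb of TAD5, read at 1 fragment, had 1.56 and 1.86. The first 100 kb of TAD6 had 2.03 and 1.19 and the next 100 kb 0.69 and 1.34, so in library 1 the mean was higher outside this border than inside. The contacts of TAD2 above expectation thus reached past the average TAD4/TAD5 border in both keratinocyte libraries. The last 100 kb of TAD4 also holds the second matches of the F1223 and R1281 probes, and the first 100 kb of TAD6 that of the R1247 probe. The study puts the accuracy of its borders at about 100 kb either way, so the side of fragments this near a border is uncertain. In thymocytes the same stretch of TAD4 had 0.65 and 1.42, and the first 100 kb of TAD5 0.94 and 0.96.

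The strongest reproducible member in keratinocytes was F476-R1225, 2.288 Mb apart. Its corrected frequency was 369 against an expected 55.3 in library 1 and 175 against 35.7 in library 2, at Z scores of 9.36 and 8.02. In thymocytes it was 108 against 40.0 and 85.2 against 23.9, at Z scores of 3.95 and 6.27. The contact was called in all 4 libraries, and its ratio of observed to expected was 6.68 and 4.91 in keratinocytes and 2.70 and 3.57 in thymocytes.

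Next came F313-R1249, with Z scores of 8.02 and 10.9 in keratinocytes and 7.84 and -1.28 in thymocytes, so that it was high in 3 of 4 libraries. F246-R1225 had 12.1 and 7.52 in keratinocytes and -0.05 and 6.85 in thymocytes. The thymocyte libraries disagreed in both cases, in opposite directions.

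R285-F1351, which spans 3.182 Mb, differed more clearly by cell type, with 5.31 and 6.99 times its expected frequency in keratinocytes and 1.18 times in thymocyte library 1. Its Z scores were 7.06 and 12.04 in keratinocytes, and 0.37 in thymocyte library 1, the only thymocyte library that listed it. F628-R1225 had Z scores of 6.23 and 6.86 in keratinocytes and 1.97 and 3.48 in thymocytes. The remaining 3 of the 8 strongest, R674-F1275, F433-R1249 and R469-F1223, had keratinocyte Z scores of 6.47 to 10.0 and were listed in no thymocyte library.

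The 4 members called in both thymocyte libraries were R632-F1275, F476-R1225, F669-R1249 and F630-R1225. R632-F1275 was the highest of them, at 138 against an expected 28.7 and 203 against 28.2 in thymocytes, with Z scores of 6.01 and 14.4. Its keratinocyte Z scores were 5.65 and 7.96. F669-R1249 had 9.04 and 3.44 in thymocytes and 3.59 and 5.59 in keratinocytes, and F630-R1225 had 2.59 and 2.80 in thymocytes and 4.16 and 3.32 in keratinocytes. In TAD2, F630, R632 and F628, another fragment with called keratinocyte contacts, together span 10.6 kb.

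The 48 called keratinocyte contacts involved 33 TAD2 and 7 TAD5 fragments. F313 took part in 4, R469 and F470 in 3 each, and 8 further TAD2 fragments in 2 each. Of the 8 TAD5 fragments with at least 5 contacts in both keratinocyte libraries, 7 had called contacts and F1228 had none.

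Between the stretches of TAD2 and TAD5 for which the study used BAC probes in imaging (chr3:91177126-91327356 and chr3:93771296-93954230), F470-R1311 and F476-R1311 were the only listed contacts. F470-R1311 had Z scores of 3.63 and 13.1 in keratinocytes and -1.69 and 9.37 in thymocytes. F476-R1311 had 2.02 and 2.21 in keratinocytes and 23.1 in thymocyte library 2, the highest of any member, and was not listed in thymocyte library 1. At this pair of stretches the cell types thus overlapped.

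Fragment length moved with the level of TAD2 fragments in keratinocytes, with a Spearman's rho between length and mean Z score of 0.397 over 61 fragments in library 1 and 0.248 over 45 in library 2. For the GC content of the fragment rho was -0.171 and -0.294. The part of length and base composition in the differences among TAD2 fragments was not tested.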

How the data were processed

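The data are 4 contact tables, 1 per 5C library, with 2 libraries of keratinocytes and 2 of thymocytes grouped by their titles. The authors aligned reads to the probe sequences (Bowtie and build mm9 are named in the submitters' processing notes, versions not given in the sources used here), kept unique alignments, counted probe pairs, filtered out probes that performed poorly and isolated contacts of extreme strength, and corrected each probe for coverage. The signal they deposited is this corrected frequency, with the expected frequency at that distance and its standard deviation, both by Loess. The score they deposited is the Z score, and the p-value and q-value they deposited come from a Weibull fit to the Z scores, per library. The other deposited column used is the genomic distance. Raw counts were not used, so the read depth behind a contact is unknown and counting error cannot be given.

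Members were found by fragment midpoint, with average keratinocyte borders applied to both cell types. These borders came from the insulation analysis of the same keratinocyte libraries. The members, lists and tests were chosen with earlier results of these data known. Contacts named are the 8 called in both keratinocyte libraries with the highest lower Z score, and up to 5 in thymocytes by the same order. Fragments named are TAD5 fragments with at least 5 contacts in both libraries of a cell type, and the 6 highest and 3 lowest TAD2 fragments with at least 4. Genes named are the protein-coding genes of both domains in the study's gene table, read at fragments within 10 kb, and blocks are 4 stretches of TAD2 by 3 of TAD5. Other contacts and fragments were named after their values were seen.

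Library means were compared with exact permutation tests. The test across contacts used limma 3.58.1 in R 4.3.3 (lmFit, eBayes with trend) on Z scores of the 23395 contacts listed in all 4 libraries, with Benjamini-Hochberg adjustment at 0.05, and it was tested on simulated data. Other steps used Python 3.11.15, numpy 2.4.6, pandas 2.3.3, scipy 1.17.1 and matplotlib 3.10.9. Probe sequences came from the study's probe list and were matched to both strands at every HindIII site of the mm9 genome, and genes came from GENCODE vM1. Alternatives were other q-value thresholds, borders, summaries and scales, unlisted pairs at 0, a replicate block and the removal of each library in turn. Leaving out the TAD5 fragments with a second probe match was chosen after seeing the data.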

Additional observations from a re-analysis of the deposited data

How the results depend on the processing

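The keratinocyte minus thymocyte difference in mean Z score stayed above 0 under all 12 other settings, at 1.27 to 2.46 in Z score and 0.73 on the log2 scale, and at 0.82 to 2.35 when a library was left out. These settings do not include the contacts in which neither fragment had another exact or near match, where the gap was 0.81. With unlisted pairs at a frequency of 0, the means were 2.01 and 1.56 in keratinocytes and -0.82 and -0.54 in thymocytes. With the borders moved inward by 100 kb the library means were 4.48 and 3.92 in keratinocytes and 0.87 and 3.74 in thymocytes. TAD5 was then read at F1275 and R1311 only, among contacts listed in all 4 libraries or in both libraries of a cell type. F1275 has a second probe match, and R1311 had few thymocyte contacts, so this setting also changes which fragments are read. Thymocyte library 2 was then close to keratinocyte library 2. The replicate numbers were not shown to pair the libraries, since the deviations of same-numbered libraries correlated at -0.094 over 23395 contacts. With the replicate number as a block the difference was 1.58, with an exact permutation p of 0.5. Under the block limma called 0 members, as it did under every other setting. The differences from TAD2-TAD4, TAD2-TAD6 and TAD1-TAD5 contacts stayed above 0 on average, at 0.75 to 2.30, 1.00 to 2.58 and 1.01 to 1.99 in Z score and at 0.41, 0.60 and 0.57 on the log2 scale, and without single libraries at 0.50 to 1.29, 0.80 to 1.64 and 0.46 to 1.45.

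The count called in both keratinocyte libraries was 31 of 240 at a q-value under 0.01 and 13 of 31 with the borders moved inward by 100 kb. It was 24 of the 102 contacts listed in all 4 libraries and 26 of 147 without the TAD5 fragments whose probe has a second match. The shares of all contacts called under these settings were not counted. It was 84 to 126 with a single keratinocyte library. The thymocyte count was 1 of 18 with the borders moved inward and 22 to 34 with a single library. With fewer contacts or fewer libraries to pass, these counts change by construction. The contrasts by position and probe direction were not stable. With unlisted pairs at a frequency of 0, the first stretch of TAD5 minus the others was 0.054, the left minus the right part of TAD2 was -0.0038 and forward minus reverse probes in TAD2 was -0.15. With the borders moved inward the left minus the right part of TAD2 was -2.12, and without single libraries it was -0.080 to 0.39. Averaged over TAD2 fragments, forward minus reverse was -0.15. The cause of these reversals was not tested. The position contrast of TAD5 could not be run with the borders moved inward, because its first stretch had no contact left. Limma on the 9178 contacts with an expected frequency above the median in every library called 0, and no member was among them.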
